A study of Bos taurus with 8 samples.

Results

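In bovine embryos at the eight-cell stage, 31 genes were nearly silent after in vitro fertilisation and clearly present after cloning. They were taken as the named features with less than 0.5 FPKM in all 3 in vitro fertilised (IVF) libraries and at least 5 FPKM in all 3 libraries of cloned embryos made by somatic cell nuclear transfer (SCNT). The files list 21258 features, of which 14158 have a symbol. Of the named features, 3177 met the IVF limit and 4808 met the SCNT limit. The converse pattern, at least 5 FPKM in every IVF library and below 0.5 FPKM in every SCNT library, held for 9 named features. IVF and SCNT values chose the 31 genes, so the gap between these 2 groups is a description here. The libraries of cloned embryos with KDM4E took no part in the choice.

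The embryos were Holstein, and each library was made from a pool of 8. The groups were SCNT embryos that overexpressed KDM4E (written KDM4E-SCNT, 2 libraries), IVF embryos (3 libraries) and SCNT embryos without the overexpression (3 libraries), which the design text names as the control of both other groups. The labels do not give the donor cell, the sex of the embryos, the hour of collection or the way KDM4E was overexpressed. Nor do they say if pools sharing a label were made on separate days or from separate parents, so p-values measure only the spread between these libraries, which may be technical.

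In nuclear transfer, the nucleus of a body cell is placed in an egg without its own nucleus, and the egg has to reset the chromatin of that nucleus. In cattle, the main wave of transcription from the embryo's own genome starts at about this stage, while transcripts stored in the egg are lost. KDM4E removes methyl groups from a lysine of histone H3 whose methylation marks silent chromatin. A gene that is on in cloned but not in fertilised embryos can code for any kind of protein, and the 31 genes fall into several kinds.

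FPKM counts fragments per length of transcript and relative to the size of the library. The files hold no counts, so sequencing depth is unknown. Between 10975 and 13050 features per library reached 1 FPKM, and the 10 most abundant features held 15.8% to 25.7% of all FPKM. No feature is named KDM4E. The feature LOC524768, described in the files as like KDM4C, stood at 101.85 and 206.44 FPKM in KDM4E-SCNT, 108.87, 88.34 and 109.12 in IVF, and 25.44, 29.95 and 33.93 in SCNT. KDM4E-SCNT was thus above SCNT for that feature, and whether it is the overexpressed gene is not given in the sources used here. In pools, fewer cells that use a gene and less RNA per cell cannot be told apart.

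The 31 genes together summed to 151.57 and 92.61 FPKM in the KDM4E-SCNT libraries, 3.01, 3.93 and 5.27 FPKM in the IVF libraries, and 612.4, 484.67 and 696.33 FPKM in the SCNT libraries. The KDM4E-SCNT sums lay between the others, nearer to IVF on the linear scale. Of the 93 IVF values, 42 are listed at 0, and 8 genes are listed at 0 in every IVF library. Mean levels in SCNT ran from 5.91 FPKM for MTA2 to 91.2 FPKM for GRP, with a median of 12.7. In 26 of the 31 genes the highest SCNT library was under 2 times the lowest. The choice asked for at least 5 FPKM in every SCNT library, which left out genes low in any of them. That count therefore does not show that the SCNT libraries were alike. The least even gene was TMEM139.

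**Figure D1:**
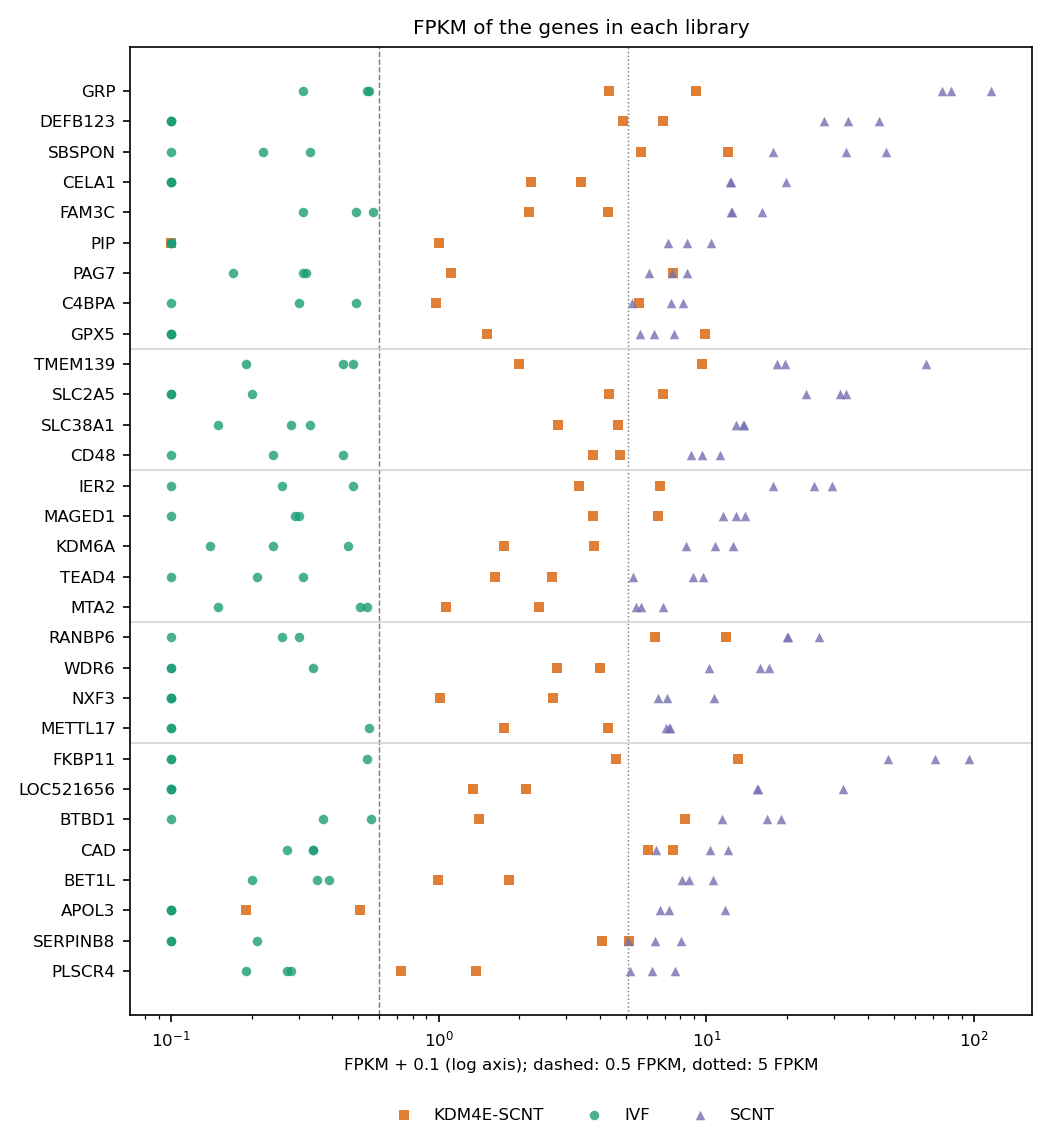
FPKM (log axis, 0.1 added so that a listed 0 can be drawn) of 30 of the 31 genes, grouped by role and ordered by SCNT mean, with 1 point per library for KDM4E-SCNT (squares), IVF (circles) and SCNT (triangles). The dashed line marks the IVF limit of 0.5 FPKM and the dotted line the SCNT limit of 5 FPKM. The squares lie between circles and triangles in 24 of these 30 genes.

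Most of the 31 genes were lower in KDM4E-SCNT than in SCNT, and most were higher there than in IVF. Values were tested as log2(FPKM + 1) with limma over all 14839 features that had 1 FPKM in at least 2 libraries. The test was two-sided, p-values were adjusted over all these features (Benjamini-Hochberg), and a called gene is one whose adjusted p fell under 0.05. All 31 passed the filter, through their SCNT libraries. In KDM4E-SCNT minus SCNT, 25 of the 31 were called lower and none higher, where 11% of all features were called lower. The median difference over the 31 was -1.82, beside 0.32 over all features, and among the 30 genes named here the differences ran from -3.65 in GRP to -0.41 in SERPINB8. In KDM4E-SCNT minus IVF, 20 were called higher and none lower, where 5.90% of all features were called higher. The median difference there was 1.91, with a range of 0.31 to 3.11, beside -0.03 over all features. The genes had been chosen to be high in SCNT and low in IVF, which favours both directions, and both comparisons use the same KDM4E-SCNT libraries. Without KDM4E-SCNT replicate 2 the count called lower than SCNT was 14, and without KDM4E-SCNT replicate 1 the count called higher than IVF was 11. Of the 25 and 20 calls, 12 and 9 held under all 19 alternative settings. Median-ratio scaling put 2772 features in all below SCNT, against 1636 with the values as deposited, and 28 of the 31 genes. All 31 were called lower in IVF minus SCNT, where 23.6% of all features were; that contrast made the choice.

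The calls divide the genes into 4 sets. There were 16 genes called both lower than SCNT and higher than IVF. They are BTBD1, CD48, CELA1, DEFB123, FAM3C, FKBP11, GRP, IER2, KDM6A, MAGED1, RANBP6, SBSPON, SLC2A5, SLC38A1, TEAD4 and WDR6. Of these, DEFB123, FKBP11 and SLC2A5 held both calls under all 19 alternative settings. The call against IVF was lost in 15 of the 19 for TEAD4, 14 for BTBD1 and 8 for KDM6A, and the call against SCNT was lost in 10 for CD48. A further 9 were called lower than SCNT and not called against IVF, among them APOL3, BET1L, LOC521656, MTA2, NXF3, PIP, PLSCR4 and TMEM139. CAD, GPX5, METTL17 and SERPINB8 were higher than IVF and not called against SCNT. C4BPA and PAG7 were called in neither comparison. With 2 KDM4E-SCNT libraries, a missing call does not show that levels were alike.

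Counted by library, both KDM4E-SCNT libraries were below all 3 SCNT libraries in 26 of the 31 genes, against 21.4% of all features tested. Both were above all 3 IVF libraries in 30, against 20.0% of features, the exception being PIP. Both lay between the other groups in 25, against 10.6%. Relative to its own SCNT mean, the mean KDM4E-SCNT level had a median of 23.2% over the 31 genes, and among the 30 named here it ran from 2.95% for APOL3 to 86.7% for GPX5. Among the 4777 other named features with at least 5 FPKM in every SCNT library, the medians were 86.0% in KDM4E-SCNT replicate 1 and 80.6% in replicate 2. The choice fixed a wide gap between IVF and SCNT in all of the 31, with SCNT the higher. No such gap was asked of the other features, so these shares and medians do not show that the 31 stand apart.

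**Figure D2:**
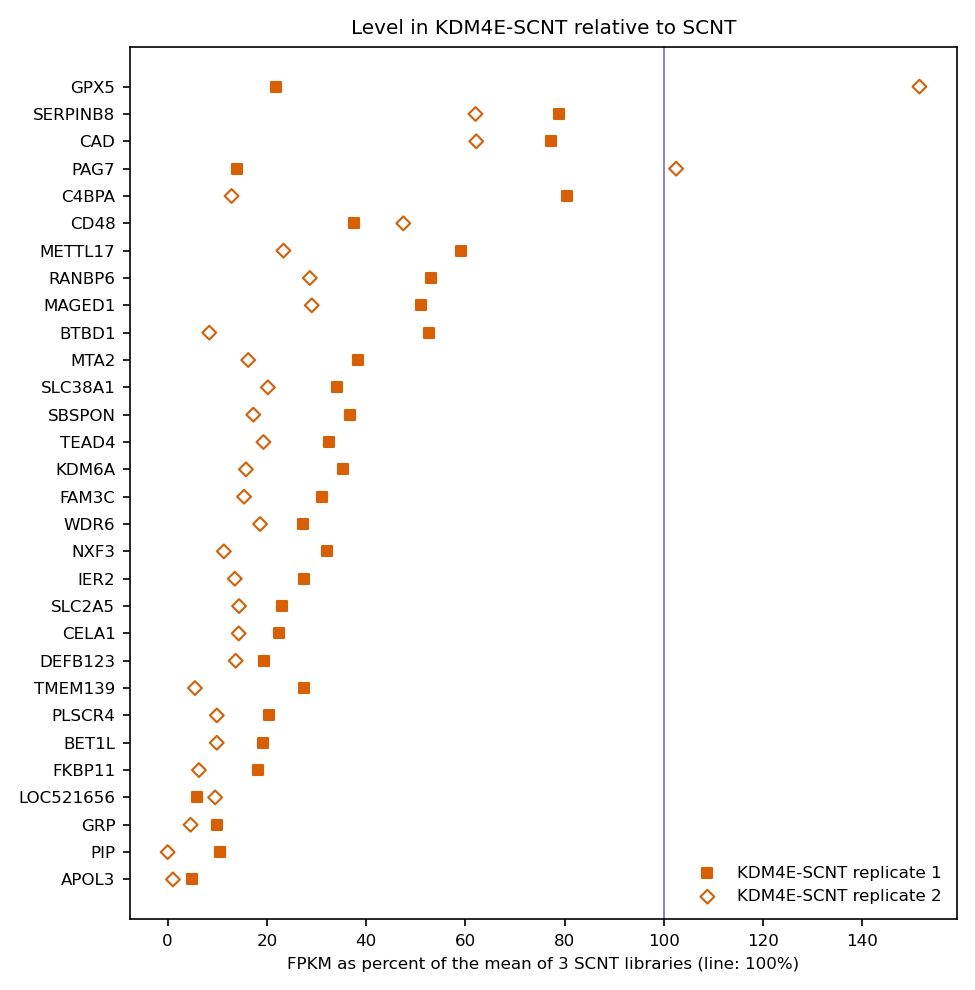
FPKM of each of 30 of the 31 genes in KDM4E-SCNT replicate 1 (filled squares) and replicate 2 (open diamonds) as a percentage of the mean of the 3 SCNT libraries, with a line at 100%. The medians of the points drawn are 29.3% and 14.9%, and replicate 2 lies past the line for GPX5 and PAG7.

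The secreted and extracellular proteins were the largest group, with 9 genes, of which 6 were called lower than SCNT and 6 higher than IVF. GRP encodes gastrin-releasing peptide, a neuropeptide of the bombesin family, and was the most abundant of the 31 genes in SCNT (ENSBTAG00000004796.4, chromosome 24, 58710084 to 58722719). It stood at 9.07 and 4.21 FPKM in KDM4E-SCNT, 0.44, 0.45 and 0.21 FPKM in IVF, and 115.57, 75.90 and 82.20 FPKM in SCNT. Both KDM4E-SCNT libraries lay between the other groups, at 9.94% and 4.62% of the SCNT mean. The difference from SCNT was -3.65 ± 0.39 on the log2(FPKM + 1) scale (SE, limma adjusted p = 0.000422), and that from IVF was 2.41 ± 0.39 (adjusted p = 0.00239).

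DEFB123 encodes a beta-defensin, a small antimicrobial peptide. Its levels were 6.78 and 4.8 FPKM in KDM4E-SCNT and 33.65, 27.50 and 43.95 FPKM in SCNT, and it is listed at 0 in all 3 IVF libraries. KDM4E-SCNT lay apart from both other groups, -2.40 ± 0.36 from SCNT (limma adjusted p = 0.00114) and 2.75 ± 0.36 from IVF (adjusted p = 0.000902). SBSPON, a secreted protein with somatomedin B and thrombospondin domains, had 11.99 and 5.62 FPKM in KDM4E-SCNT, 0.12, 0 and 0.23 FPKM in IVF, and 33.15, 17.69 and 46.89 FPKM in SCNT. Its KDM4E-SCNT mean of 8.80 FPKM was the second highest of the 31 genes after RANBP6. CELA1, a serine protease of the elastase family, had 3.31 and 2.11 FPKM in KDM4E-SCNT and 19.80, 12.20 and 12.22 FPKM in SCNT, and is listed at 0 in all IVF libraries. FAM3C, a secreted cytokine-like protein, had 4.20 and 2.08 FPKM in KDM4E-SCNT, 0.39, 0.47 and 0.21 FPKM in IVF, and 12.32, 12.21 and 16.02 FPKM in SCNT. In all of these genes both KDM4E-SCNT libraries lay between the other groups, whose own separation was set by the choice.

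PIP encodes prolactin-inducible protein, found in secreted fluids such as saliva and seminal plasma. It had 0.90 FPKM in KDM4E-SCNT replicate 1 and is listed at 0 in replicate 2 and in all IVF libraries, against 10.26, 8.39 and 7.08 FPKM in SCNT. It was called lower than SCNT (-2.78 ± 0.41, limma adjusted p = 0.000975) and not called against IVF (adjusted p = 0.575). PIP was the only one of the 31 with a KDM4E-SCNT library at 0.

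The other 3 secreted proteins were not called against SCNT. C4BPA, the alpha chain of a complement inhibitor, had 5.50 and 0.88 FPKM in KDM4E-SCNT, 0.20, 0 and 0.39 FPKM in IVF, and 7.25, 5.16 and 8.10 FPKM in SCNT. GPX5, a glutathione peroxidase known from the epididymis, had 1.41 and 9.75 FPKM in KDM4E-SCNT and 5.53, 6.29 and 7.49 FPKM in SCNT, and is listed at 0 in every IVF library. PAG7, a pregnancy-associated glycoprotein of the ruminant trophoblast, had 1.01 and 7.40 FPKM in KDM4E-SCNT, 0.07, 0.22 and 0.21 FPKM in IVF, and 7.32, 8.37 and 5.98 FPKM in SCNT. In these genes 1 KDM4E-SCNT library fell within or above the SCNT range and the other was well below it. Without KDM4E-SCNT replicate 1 the difference from SCNT was 0.54 for GPX5 and 0.041 for PAG7, both turned in sign. With all libraries, GPX5 was called higher than IVF (limma adjusted p = 0.0173) and PAG7 was not (adjusted p = 0.0562). The PAG genes form a family of near copies, so reads may be shared among them and the PAG7 level is uncertain.

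The 4 transporters and other cell-surface proteins described here were all called lower than SCNT, and 3 of them higher than IVF. SLC2A5 transports fructose. It had 6.77 and 4.22 FPKM in KDM4E-SCNT, 0, 0 and 0.10 FPKM in IVF, and 33.05, 23.54 and 31.40 FPKM in SCNT. SLC38A1 carries glutamine and other neutral amino acids with sodium, and had 4.56 and 2.70 FPKM in KDM4E-SCNT, 0.23, 0.05 and 0.18 FPKM in IVF, and 13.69, 13.63 and 12.79 FPKM in SCNT. CD48, a GPI-anchored ligand of the SLAM family on blood cells, had 3.68 and 4.65 FPKM in KDM4E-SCNT, 0.14, 0 and 0.34 FPKM in IVF, and 9.54, 11.17 and 8.67 FPKM in SCNT. All of these were intermediate without overlap, but CD48 was close to the threshold against SCNT (-1.06 ± 0.36, limma adjusted p = 0.0402). TMEM139, a membrane protein, had 9.49 and 1.90 FPKM in KDM4E-SCNT, 0.34, 0.38 and 0.09 FPKM in IVF, and 19.54, 18.18 and 66.08 FPKM in SCNT. Its SCNT replicate 3 was far above the other two, and TMEM139 was called against SCNT (-2.43 ± 0.60, adjusted p = 0.00959) but not against IVF (2.13 ± 0.60, adjusted p = 0.0546).

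The 5 genes of chromatin and transcription were all called lower than SCNT, and 4 of them higher than IVF. Over the 31 genes these shares were 80.6% and 64.5%. With so few genes in each role, the counts set neither this role nor any of the other roles apart. KDM6A encodes an X-linked demethylase of histone H3 that acts on the mark laid down by Polycomb (ENSBTAG00000003740.5, chromosome X, 104047768 to 104164066). It had 3.69 and 1.65 FPKM in KDM4E-SCNT, 0.36, 0.04 and 0.14 FPKM in IVF, and 8.30, 10.66 and 12.42 FPKM in SCNT. Both KDM4E-SCNT libraries lay between the other groups, with differences of -1.68 ± 0.40 from SCNT (limma adjusted p = 0.00773) and 1.59 ± 0.40 from IVF (adjusted p = 0.0311, a call lost in 8 of 19 alternatives). KDM6B, which acts on the same mark, was at most 0.64 FPKM in every library.

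TEAD4 is a DNA-binding factor that works with the coactivators YAP1 and WWTR1, and in mouse it is needed for the first outer lineage of the embryo, the trophectoderm (ENSBTAG00000019788.5, chromosome 5, 107264250 to 107325273). It had 2.56 and 1.52 FPKM in KDM4E-SCNT, 0, 0.11 and 0.21 FPKM in IVF, and 9.63, 5.21 and 8.79 FPKM in SCNT. Both KDM4E-SCNT libraries lay between the other groups, -1.53 ± 0.40 from SCNT (limma adjusted p = 0.0122) and 1.44 ± 0.40 from IVF (adjusted p = 0.0494), the second being just under the threshold and lost in 15 of 19 alternatives. IER2, an immediate early response gene, had 6.61 and 3.25 FPKM in KDM4E-SCNT, 0, 0.16 and 0.38 FPKM in IVF, and 29.28, 17.66 and 25.15 FPKM in SCNT. MAGED1, an X-linked adaptor of the MAGE family, had 6.48 and 3.68 FPKM in KDM4E-SCNT, 0, 0.20 and 0.19 FPKM in IVF, and 12.75, 13.80 and 11.47 FPKM in SCNT. The KDM4E-SCNT mean was 40.1% of that of SCNT for MAGED1 and 20.5% for IER2. MTA2, a subunit of the NuRD deacetylase complex, had 2.27 and 0.96 FPKM in KDM4E-SCNT, 0.05, 0.44 and 0.41 FPKM in IVF, and 5.58, 6.80 and 5.36 FPKM in SCNT, and was not called against IVF (adjusted p = 0.189).

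Of the 4 genes of RNA and nuclear transport, 3 were called lower than SCNT and 3 higher than IVF. RANBP6, of the importin beta family, had the highest KDM4E-SCNT mean of the 31 genes. It had 11.74 and 6.33 FPKM in KDM4E-SCNT, 0, 0.16 and 0.20 FPKM in IVF, and 20.16, 19.98 and 26.17 FPKM in SCNT. The difference from IVF was 3.11 ± 0.38 (limma adjusted p = 0.00048) and that from SCNT was -1.25 ± 0.38 (adjusted p = 0.0242). WDR6, a partner of the tRNA methyltransferase FTSJ1, had 3.91 and 2.66 FPKM in KDM4E-SCNT, 0, 0 and 0.24 FPKM in IVF, and 16.99, 10.11 and 15.77 FPKM in SCNT. NXF3, a relative of the main mRNA export factor NXF1, had 2.58 and 0.91 FPKM in KDM4E-SCNT and 10.58, 7 and 6.52 FPKM in SCNT, and is listed at 0 in all IVF libraries. METTL17, which serves assembly of the mitochondrial ribosome, had 4.20 and 1.66 FPKM in KDM4E-SCNT, 0, 0 and 0.45 FPKM in IVF, and 6.97, 7.17 and 7.21 FPKM in SCNT. In all 4, both KDM4E-SCNT libraries lay between the other groups. METTL17 just missed the threshold against SCNT (adjusted p = 0.0508), and NXF3 missed it against IVF (adjusted p = 0.0671).

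Enzymes and proteins of membranes and protein turnover made up the remaining 8, with 6 called lower than SCNT and 4 higher than IVF. FKBP11, a prolyl isomerase of the secretory pathway, had 12.97 and 4.50 FPKM in KDM4E-SCNT, 0, 0.44 and 0 FPKM in IVF, and 71.49, 47.50 and 95.31 FPKM in SCNT. It differed by -2.99 ± 0.46 from SCNT (limma adjusted p = 0.00117) and by 2.96 ± 0.46 from IVF (adjusted p = 0.00192). LOC521656, described in the files as a cytochrome P450 of subfamily 2J, had 1.24 and 2.01 FPKM in KDM4E-SCNT and 15.39, 15.47 and 32.22 FPKM in SCNT, and is listed at 0 in IVF. APOL3, of the apolipoprotein L family, had 0.41 and 0.09 FPKM in KDM4E-SCNT and 6.6, 11.62 and 7.17 FPKM in SCNT, and is also listed at 0 in IVF. APOL3 was the only gene with both KDM4E-SCNT libraries below 0.5 FPKM, and its difference from SCNT was -2.89 ± 0.39 (adjusted p = 0.000779).

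BET1L, a SNARE protein of the Golgi, had 1.73 and 0.89 FPKM in KDM4E-SCNT, 0.25, 0.10 and 0.29 FPKM in IVF, and 8.50, 10.50 and 7.99 FPKM in SCNT. PLSCR4, a phospholipid scramblase, had 1.28 and 0.62 FPKM in KDM4E-SCNT, 0.18, 0.09 and 0.17 FPKM in IVF, and 7.53, 6.16 and 5.08 FPKM in SCNT. Both were called lower than SCNT and not called against IVF, although both KDM4E-SCNT libraries were above all IVF libraries in each gene. BTBD1, a BTB-domain adaptor of ubiquitin ligases, had 8.23 and 1.31 FPKM in KDM4E-SCNT, 0, 0.27 and 0.46 FPKM in IVF, and 11.32, 18.89 and 16.70 FPKM in SCNT, so its KDM4E-SCNT libraries differed from each other more than those of SCNT did.

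In the KDM4E-SCNT libraries CAD stood at 77.3% and 62.2% of its SCNT mean, and SERPINB8 at 78.9% and 62.0%. CAD, the enzyme of the first steps of pyrimidine synthesis, had 7.37 and 5.93 FPKM in KDM4E-SCNT, 0.24, 0.24 and 0.17 FPKM in IVF, and 10.25, 6.40 and 11.96 FPKM in SCNT. SERPINB8, an intracellular protease inhibitor, had 5.06 and 3.98 FPKM in KDM4E-SCNT, 0, 0.11 and 0 FPKM in IVF, and 5, 7.91 and 6.34 FPKM in SCNT. In each, KDM4E-SCNT replicate 1 lay inside the SCNT range and replicate 2 just below it. The differences from SCNT were -0.43 ± 0.38 for CAD (limma adjusted p = 0.399) and -0.41 ± 0.37 for SERPINB8 (adjusted p = 0.407), while those from IVF were 2.65 ± 0.38 (adjusted p = 0.0013) and 2.41 ± 0.37 (adjusted p = 0.00192).

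**Figure D3:**
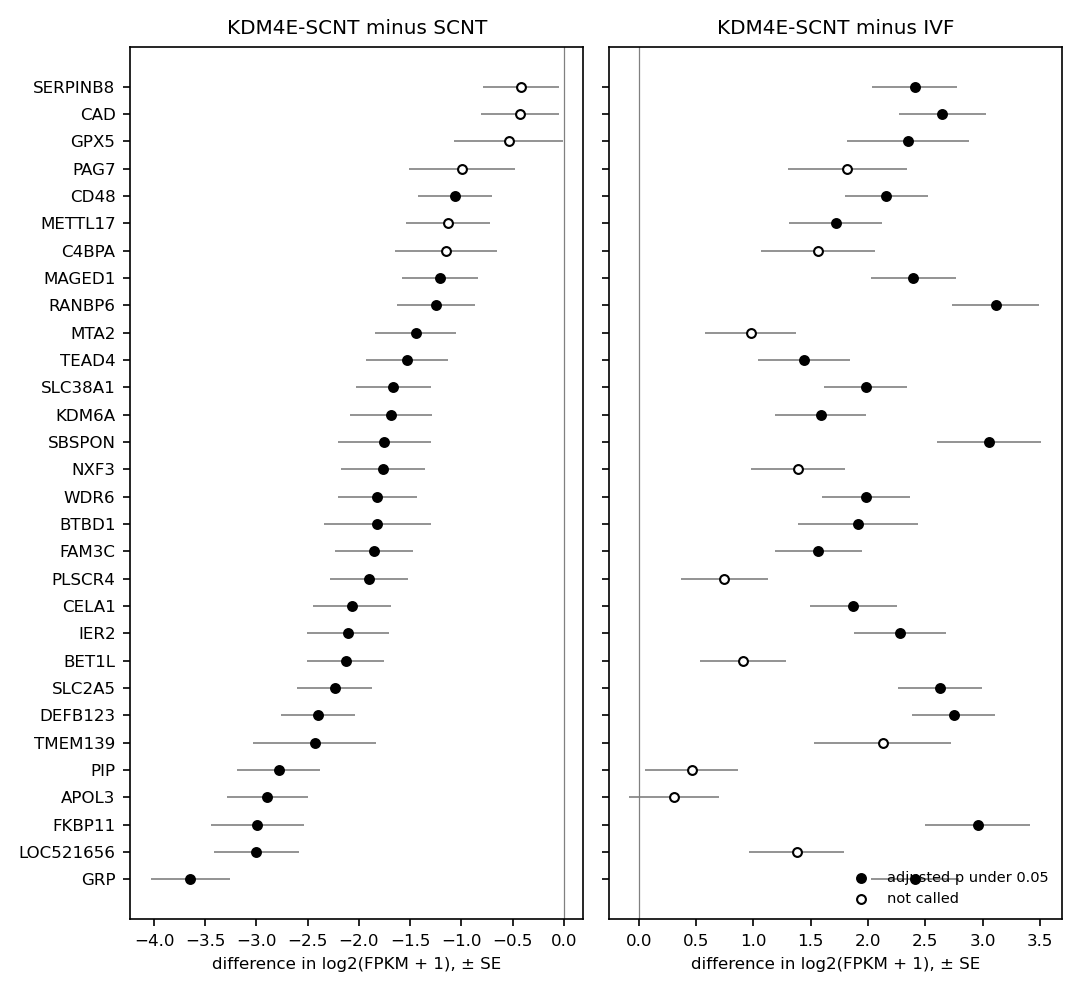
Difference in log2(FPKM + 1), with the standard error from limma, of KDM4E-SCNT minus SCNT (left) and KDM4E-SCNT minus IVF (right) for 30 of the 31 genes, ordered by the left panel. Filled points have an adjusted p under 0.05. Every left value is below 0 and every right value above 0, with 24 and 20 of these genes called.

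The 2 KDM4E-SCNT libraries were not alike. Replicate 1 was the higher in 27 of the 31 genes, against 40.4% of all features tested, and replicate 2 was the higher in CD48, GPX5, LOC521656 and PAG7. The median level was 27.5% of the SCNT mean in replicate 1 and 14.4% in replicate 2. In replicate 1, 13 genes reached 5 FPKM and 1 was below 0.5 FPKM. In replicate 2, 5 reached 5 FPKM and 3 were below 0.5 FPKM. The markers of other cells also differed between these libraries. The 19 fibroblast markers found, a type often used as donor, summed to 88.71 and 379.1 FPKM in KDM4E-SCNT, 26.76 to 48.59 FPKM in IVF, and 119.99 to 186.93 FPKM in SCNT. Of the 12 fibroblast markers tested, 5 were called lower and 1 higher in IVF minus SCNT. SPARC had 10.40 and 53.32 FPKM in KDM4E-SCNT, 0.52 to 0.94 FPKM in IVF, and 23.56 to 50.59 FPKM in SCNT. FN1 had 6.55 and 8.40 FPKM in KDM4E-SCNT, 8.05 to 15.95 FPKM in IVF, and 0.29 to 7.36 FPKM in SCNT. COL6A2 was at most 0.04 FPKM and PDGFRB at most 0.15 FPKM in every library. The 14 oocyte markers summed to 21561 and 25712 FPKM in KDM4E-SCNT, 28583 to 35406 FPKM in IVF, and 4839 to 10041 FPKM in SCNT. The 9 blood markers found summed to 53.14 and 83.39 FPKM in KDM4E-SCNT, 19.84 to 28.53 FPKM in IVF, and 73.38 to 144.69 FPKM in SCNT, and HBB is listed at 0 in both KDM4E-SCNT libraries. The 6 trophectoderm markers found summed to 221.87 and 85.47 FPKM in KDM4E-SCNT, 50.4 to 88.99 FPKM in IVF, and 307.47 to 416.35 FPKM in SCNT, mostly through TFAP2C, while KRT18 was at most 0.36 FPKM in every library. The 11 cumulus and granulosa markers found summed to 47.67 and 103.23 FPKM in KDM4E-SCNT. They summed to 104.74 to 164.68 FPKM in IVF and 22.41 to 27.68 FPKM in SCNT. The 8 sperm markers found summed to 48.03 and 56.12 FPKM in KDM4E-SCNT, 70.16 to 92.71 FPKM in IVF, and 25.89 to 41.8 FPKM in SCNT. The fibroblast, blood and trophectoderm sums were each higher in SCNT than in IVF, and the oocyte, cumulus and sperm sums lower. Single markers did not all follow. In IVF the sperm sum was mostly LDHC, at 59.61 to 80.85 FPKM. CRISP2 went the other way, with 1.15 to 2.73 FPKM in IVF and 17.53 to 34.26 FPKM in SCNT. The cumulus and granulosa sum in IVF was mostly HAS2 and STAR. TNFAIP6 went the other way, with 0.83 to 2.64 FPKM in IVF and 3.7 to 8.19 FPKM in SCNT. Of the 5 cumulus and granulosa markers tested, 3 were called higher and 2 lower in IVF minus SCNT. The blood sum was mostly HBA and HBA1, which had the same or nearly the same values in each library, while PTPRC had 0.81 and 0.79 FPKM in KDM4E-SCNT, 1.29 to 7.13 FPKM in IVF, and at most 0.1 FPKM in SCNT. GATA3 had 9.37 and 7.78 FPKM in KDM4E-SCNT, 7.51 to 18.85 FPKM in IVF, and 1.6 to 5.19 FPKM in SCNT, and of the 5 trophectoderm markers tested, 3 were called higher and 2 lower in IVF minus SCNT. No member of the 31 is in a marker list, and the part of these differences in the result was not tested.

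Because SCNT values chose the genes, the choice was repeated with 1 SCNT library left out, and KDM4E-SCNT was then set against that library alone. Without SCNT replicate 1, 33 genes met the limits, and both KDM4E-SCNT libraries were below replicate 1 in 29 of them (87.9%). Without replicate 2 it was 41 of 49 genes (83.7%), and without replicate 3 it was 34 of 37 (91.9%). Among all named features at 5 FPKM or more in the other SCNT libraries, the shares were 50.2%, 45.0% and 51.5%. The genes chosen also had to stay below 0.5 FPKM in every IVF library, which was not asked of those features. The higher shares are thus not independent of the choice. The same step with each IVF library left out chose 47, 43 and 66 genes. Both KDM4E-SCNT libraries were above the left-out IVF library in 87.2%, 88.4% and 86.4% of these. Among all named features below 0.5 FPKM in the other IVF libraries, the shares were 19.5%, 20.1% and 18.3%. Unlike those features, the genes chosen still had to reach 5 FPKM in every SCNT library.

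The intermediate level was not limited to genes with such low IVF values. The 31 genes were set beside the 704 other named features with at least 5 FPKM in every SCNT library whose IVF minus SCNT difference lay in the same range (-6.06 to -2.42). Mean levels had medians of 0.147 FPKM in IVF and 12.7 FPKM in SCNT for the 31, and 7.12 FPKM and 80.4 FPKM for the 704, which were thus more abundant in both groups. In KDM4E-SCNT minus SCNT, 80.6% of the 31 were called lower, beside 76.8% of the 704. In KDM4E-SCNT minus IVF, 64.5% of the 31 were called higher, beside 62.1%. KDM4E-SCNT replicate 1 was above replicate 2 in 87.1% of the 31, beside 88.5%. The medians relative to the SCNT mean were lower for the 31, at 27.5% and 14.4% in the KDM4E-SCNT libraries, beside 42.8% and 23.6%. The match was on log2(FPKM + 1), and by the medians above IVF was a smaller part of SCNT for the 31. A level between the groups is then a lower percentage of SCNT, so these percentages do not set the 31 apart. From a list of 36 genes drawn up for genome activation, none among the 31, 21 were tested. Of those, 7 were called lower and 2 higher in KDM4E-SCNT minus SCNT, with a median difference of -1.12 beside 0.32 over all features. In KDM4E-SCNT minus IVF, 9 of them were called higher and none lower, with a median of 1.51 beside -0.03. Between IVF and SCNT, 15 of the 21 were called lower in IVF and 3 higher. The median of IVF minus SCNT was -2.72 for the 21, beside 0.39 over all features. A link between these genes and the 31 was not tested.

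For the 9 genes of the converse pattern, the KDM4E-SCNT level was expressed relative to the IVF mean. The medians were 23.9% in replicate 1 and 71.9% in replicate 2. By these medians, replicate 2 was the nearer to IVF in both sets of genes.

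Relatives of the 31 genes (88 features), listed after values had been seen and so given without a test, followed no common direction. Only some of them are given here. TEAD1 ran opposite to TEAD4, with 12.86 and 16.19 FPKM in KDM4E-SCNT, 18.70, 26.68 and 19.82 FPKM in IVF, and 1.64, 7.85 and 4.21 FPKM in SCNT. WWTR1 ran like TEAD4, with 1.16 and 2.38 FPKM in KDM4E-SCNT, 0.93, 0.70 and 0.67 FPKM in IVF, and 15.24, 12.51 and 7.59 FPKM in SCNT. YAP1 overlapped between all groups, at 8.63 and 16.22 FPKM in KDM4E-SCNT, 10.01 to 23.97 FPKM in IVF and 7.50 to 10.15 FPKM in SCNT. MTA3, another NuRD subunit, was opposite to MTA2, at 77.49 and 75.33 FPKM in KDM4E-SCNT, 71.23, 110.76 and 93.83 FPKM in IVF, and 23.27, 41.88 and 20.29 FPKM in SCNT. The KDM4E-SCNT values of TEAD1 and MTA3 were all above SCNT.

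BET1 and PLSCR1 were also opposite to BET1L and PLSCR4. BET1 had 33.36 and 73.35 FPKM in KDM4E-SCNT, 65.51, 93.32 and 83.52 FPKM in IVF, and 30.84, 21.67 and 14.67 FPKM in SCNT. PLSCR1 had 12.70 and 8.83 FPKM in KDM4E-SCNT, 14.99, 16.28 and 12.83 FPKM in IVF, and 2.02, 1.06 and 0.76 FPKM in SCNT. In these pairs the relative was high in IVF, where every member is low by the choice. A link between member and relative was not tested.

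Others ran in the same direction as the member. NMB, the second bombesin-like peptide, had 17.98 and 7.30 FPKM in KDM4E-SCNT, 2.40, 2.74 and 1.62 FPKM in IVF, and 66.40, 29.05 and 36.60 FPKM in SCNT. IPO5, the importin most like RANBP6, had 18.49 and 10.72 FPKM in KDM4E-SCNT, 2.2, 1.44 and 3.32 FPKM in IVF, and 51.24, 47.13 and 43.47 FPKM in SCNT. Both were intermediate in KDM4E-SCNT with no overlap. UCK2, which salvages pyrimidines beside the synthesis that CAD begins, had 64.00 and 42.54 FPKM in KDM4E-SCNT, 8.99 to 12.35 FPKM in IVF, and 209.54 to 346.93 FPKM in SCNT. Within the FKBP family, FKBP1B was like FKBP11, with 7.23 and 3.86 FPKM in KDM4E-SCNT, 0.50, 0.17 and 1.46 FPKM in IVF, and 56.58, 47.43 and 44.51 FPKM in SCNT. FKBP5 was not, with 13.15 and 23.77 FPKM in KDM4E-SCNT, 24.49, 30.79 and 18.99 FPKM in IVF, and 3.68, 6.30 and 4.72 FPKM in SCNT. CYP2J2 overlapped between the groups, at 7.55 and 10.66 FPKM in KDM4E-SCNT, 9.39 to 15.69 FPKM in IVF and 9.47 to 10.88 FPKM in SCNT, unlike LOC521656. It is a near relative of LOC521656, and whether reads were shared between them was not tested. LOC530929, another relative of LOC521656, is listed at 0 in all IVF libraries. It had 3.34 and 0.49 FPKM in KDM4E-SCNT, and 3.36, 2.14 and 3.13 FPKM in SCNT.

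**Figure D4:**
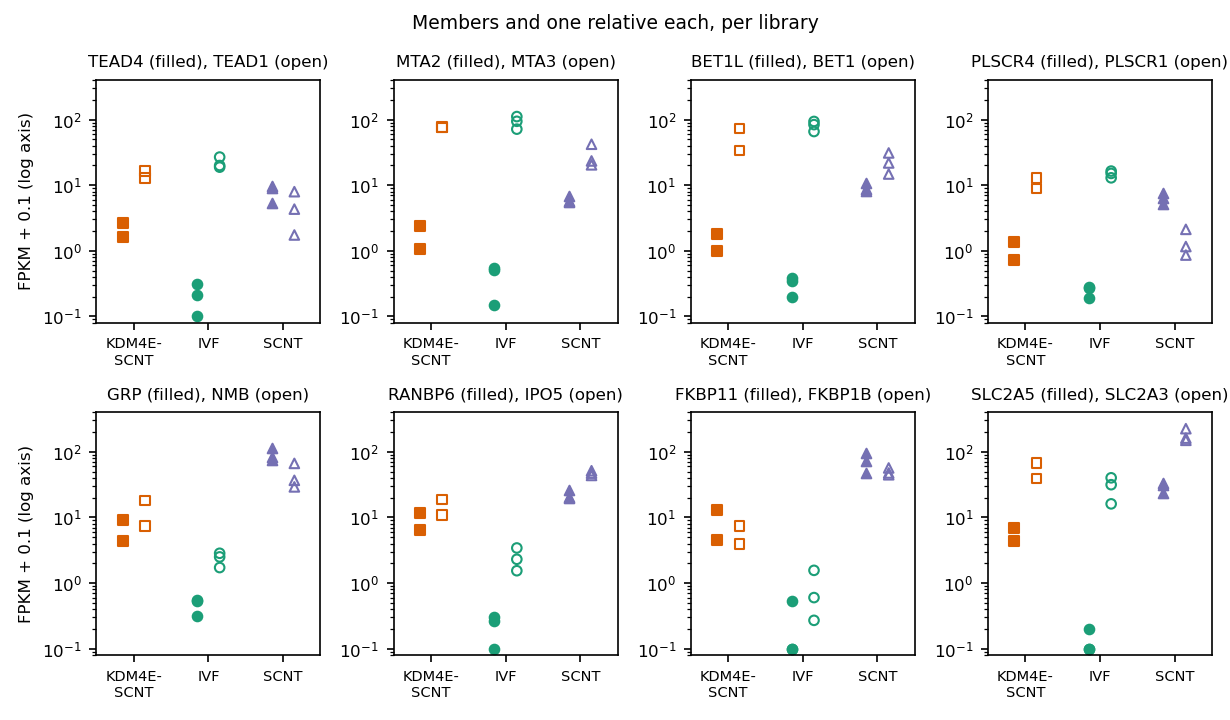
FPKM (log axis, 0.1 added) per library of 8 of the 31 genes (filled) and 1 relative of each (open) in KDM4E-SCNT, IVF and SCNT. TEAD1, MTA3, BET1 and PLSCR1 (top row) have their highest values in IVF, where the genes they stand beside are low. NMB, IPO5, FKBP1B and SLC2A3 (bottom row) have their highest values in SCNT, like the genes they stand beside.

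In the genome the 31 genes were scattered. They lie on 16 chromosomes, with 5 genes on chromosome 5 and 3 each on chromosome 4 and X, in the coordinates of the files (build UMD3.1). The X-linked genes are KDM6A, MAGED1 and NXF3, which makes 9.68% of the 31, beside 3.45% of the 4777 other named features present in SCNT. The closest pair, PIP and TMEM139 on chromosome 4, is 180833 bp apart. The median span was 14889 bp, from 559 bp for PIP to 121031 bp for NXF3, and that of the 4777 was 21637 bp. A single transcript is listed for 22.6% of the 31 and for 26.5% of the 4777.

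Within 10000 bp, 14 of the 31 have another feature, and for 1 of these, SLC38A1, that neighbour met the same FPKM limits. It is an unnamed locus of the authors' assembly, 2343 bp from SLC38A1 (chromosome 5, 34201340 to 34205559), with 4.25 and 3.33 FPKM in KDM4E-SCNT, 0.13, 0.13 and 0.22 FPKM in IVF, and 14.59, 13.24 and 13.12 FPKM in SCNT. These values are close to those of SLC38A1 itself, and whether the locus belongs to that gene was not tested. CCDC65, 614 bp from FKBP11, ran the other way, with 49.17 and 98.35 FPKM in KDM4E-SCNT, 107.02, 81.72 and 86.52 FPKM in IVF, and 6.56, 14.98 and 9.79 FPKM in SCNT. CASP2, 2284 bp from TMEM139, had 19.69 and 17.03 FPKM in KDM4E-SCNT, 13.46 to 16.95 FPKM in IVF, and 4.7 to 7 FPKM in SCNT, so it too was lowest in SCNT. NDUFAF3, 5497 bp from WDR6, ran the same way as that gene, with 8.38 and 8.53 FPKM in KDM4E-SCNT, 0, 5.34 and 2.65 FPKM in IVF, and 19.49, 10.92 and 19.28 FPKM in SCNT. IMPDH2, 7442 bp from WDR6, was also highest in SCNT, at 14.41 and 27.39 FPKM in KDM4E-SCNT, 10.93 to 29.85 FPKM in IVF and 32.56 to 58.42 FPKM in SCNT. GPX5 lies inside the span of SPATA16, which was at most 0.47 FPKM in every library.

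The limits of the choice cut through a continuum. Just inside the IVF limit were FAM3C, BTBD1 and GRP, whose highest IVF values were 0.47, 0.46 and 0.45 FPKM. Just outside it were JAM2, DHRS7 and SLC30A6, at 0.52, 0.53 and 0.55 FPKM. Just inside the SCNT limit were SERPINB8, PLSCR4 and C4BPA, whose lowest SCNT values were 5, 5.08 and 5.16 FPKM. Just outside it were RCSD1, CDAN1 and SLC25A46, at 4.93, 4.81 and 4.77 FPKM.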

How the data were processed

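RNA from pools of eight-cell embryos was sequenced as amplified cDNA, per the labels' protocols. Per the submitters' processing notes, the build was UMD3.1 and the tools were RSEM 1.2.12, Bowtie2 2.2.5, StringTie 1.0.4, HISAT 0.1.6 and bcl2fastq 2.16, with no roles given. The deposited values are FPKM per gene, per the file headers, and the files hold no counts, so limma replaced the count test that would otherwise have been used. A listed 0 may be a failed estimate. The pseudocount was 1. One model of group means over 8 libraries was fitted with limma 3.58.1 (trend, robust) in R 4.3.3. The procedure was also run on simulated data, with changes added only to features of higher mean level. That run therefore does not cover genes near 0 in a group. Differences understate changes of low genes. Features under 1 FPKM in all but 1 library (6419) were set aside. The 31 genes, their roles and the gene lists were chosen with earlier results of these data known. Of the 31, 30 are named and 1 is not reported here. Values per library were due for the 10 highest and lowest KDM4E-SCNT means, the 10 highest SCNT means and the smallest p-values, and are given for those named. By symbol, 30 of the 31 matched RefSeq's table for ARS-UCD2.0 (used for names only), all protein coding, 29 on the chromosome given in the files; SLC2A5 is placed on another. No sequence is printed. Library pairs were not treated as paired.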

Additional observations from a re-analysis of the deposited data

How the results depend on the processing

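The number of genes chosen depends on the limits. It was 19 with an IVF limit of 0.25 FPKM, 77 with 1 FPKM, 86 with an SCNT limit of 2 FPKM, 16 with 10 FPKM and 78 with unnamed features kept, and 33 to 66 with 1 library left out. No symbol starting with HIST met the limits. Among the 31, the number called lower than SCNT, 25 as reported, was 18 to 28 over the 11 other settings and 14 to 26 with 1 library left out, the lowest without KDM4E-SCNT replicate 2. The number called higher than IVF, 20 as reported, was 14 to 24 over the other settings and 11 to 21 with 1 library left out, the lowest without KDM4E-SCNT replicate 1. Calls that held under all 19 alternatives were 12 against SCNT (among them APOL3, BET1L, CELA1, DEFB123, FKBP11, GRP, IER2, LOC521656, PIP, PLSCR4 and SLC2A5) and 9 against IVF (CAD, CD48, DEFB123, FKBP11, MAGED1, RANBP6, SBSPON, SERPINB8 and SLC2A5). With 1 library left out, the difference from SCNT ran from -1.62 to 0.54 for GPX5 and from -2.02 to 0.041 for PAG7, and that of PIP from IVF from 0 to 0.93, the highest, highest and lowest values being without KDM4E-SCNT replicate 1. Over all features, 4844 were called in KDM4E-SCNT minus SCNT (1575 to 5251 with 1 library left out), 967 in KDM4E-SCNT minus IVF (291 to 1287, and 629 with only these groups fitted) and 8680 in IVF minus SCNT (7264 to 8822). Leaving out a KDM4E-SCNT library leaves 1, which is assumed to vary like the other groups. Same-numbered libraries deviated from their group means with correlations of 0.006 to 0.123, and differently numbered ones with correlations of -0.134 to 0.134. The labels name no shared batch, and such correlations cannot exclude one, so whether the numbers pair the libraries is unknown. With the number as a replicate block, 23 genes were called lower than SCNT and 19 higher than IVF, with 4252, 957 and 8656 features called in the 3 comparisons. Scaling moves the median of all features in KDM4E-SCNT minus SCNT, which was 0.32 as deposited, -0.01 after median-ratio scaling, 0.08 after upper-quartile scaling and 0.01 after quantile normalization. The features called higher and lower were 3208 and 1636 as deposited and 2098 and 2772 after median-ratio scaling. In IVF minus SCNT they were 5182 and 3498 as deposited and 4109 and 4359 after it. The 31 genes were below SCNT under each of these scalings. Depth, and with it the counting error of low FPKM, is unknown.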

Other observations

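A further 47 features without a symbol met the same FPKM limits as the 31 genes. Of these, 38 are loci of the authors' own transcript assembly and 9 have Ensembl identifiers, so most of the 78 features with this pattern are unnamed in the files and were not described here.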
